A study of Homo sapiens with 18 samples.

Results

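Carbonic anhydrases are enzymes that interconvert carbon dioxide and water with bicarbonate and a proton, and the 8 genes described here, CA9, CA12, CA2, CA5B, CA8, CA11, CA13 and CA14, were taken by name from the 23106 genes of the count tables. Their mRNA was measured by PolyA+ RNA-seq in 3 established cell lines (18 samples, 3 normoxic and 3 hypoxic replicates of each line), to follow the regulation of genes by hypoxia. HKC-8 is an immortalised human renal tubular line, HepG2 is a human liver carcinoma line, and RCC4+VHL is the VHL-defective renal carcinoma line RCC4 stably transfected with wild-type VHL, the recognition component of the ubiquitin ligase that targets HIF-α subunits, so that both its normoxic and hypoxic samples carry the transgene. Whether it is a clone or a pool is not given in the labels. For its RNA-seq the study names RCC4 cells and does not mention transfected VHL. The titles of all RCC4+VHL samples, and of no others, hold the word Replacement, which the labels do not explain. The labels give 0.5% oxygen for 16 h for hypoxic HKC-8 and HepG2 cells and 1% for 24 h for hypoxic RCC4+VHL cells, whereas 0.1% stands in the titles of hypoxic HKC-8 samples and the study describes the same exposure for every line. Normoxic samples were kept at 21% oxygen where the labels state it. The labels do not say whether the replicates were separate cultures, so the p-values below measure only the spread between these samples, which may be technical.

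Members of the family differ in where they work. CA9 and CA12 encode transmembrane enzymes with an extracellular catalytic domain, which help cells to export acid and regulate the pH outside, and CA14 encodes a further enzyme of this kind. CA2 and CA13 encode cytosolic enzymes, and CA5B encodes a mitochondrial one, which supplies bicarbonate inside the organelle. CA8 and CA11 encode related proteins that have lost catalytic activity. CA9 is among the best known transcriptional targets of HIF, and its product is widely used as a marker of hypoxic or VHL-defective tumour tissue.

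The HIF response element has the core letters ACGTG or GCGTG, and these letters were searched on both strands of the RefSeq promoters, which run from 250 bases before to 50 bases after a gene's start. Of the 8 members, 4 matched an entry of the RefSeq table (GRCh38.p14), namely CA9, CA12, CA5B and CA14. The 250 bases before each start matched GRCh37, the build of the counts, exactly once on the gene's own chromosome and strand, the only place searched. They are shown for the members that rose in at least 1 cell line, 5′ to 3′ in the direction of the gene, with matches in capitals (a match on the opposite strand reads CACGT or CACGC).
CA9: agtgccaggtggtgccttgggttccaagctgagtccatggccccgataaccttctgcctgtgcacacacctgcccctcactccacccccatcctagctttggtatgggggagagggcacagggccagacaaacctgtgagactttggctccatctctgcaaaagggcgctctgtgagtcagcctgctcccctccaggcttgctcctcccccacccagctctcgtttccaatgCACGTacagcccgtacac
CA12: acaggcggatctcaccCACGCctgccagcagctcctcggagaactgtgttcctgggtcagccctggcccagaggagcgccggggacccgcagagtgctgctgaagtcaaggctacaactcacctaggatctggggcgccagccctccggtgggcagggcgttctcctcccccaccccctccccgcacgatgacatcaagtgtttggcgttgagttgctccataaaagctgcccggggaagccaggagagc
CA5B: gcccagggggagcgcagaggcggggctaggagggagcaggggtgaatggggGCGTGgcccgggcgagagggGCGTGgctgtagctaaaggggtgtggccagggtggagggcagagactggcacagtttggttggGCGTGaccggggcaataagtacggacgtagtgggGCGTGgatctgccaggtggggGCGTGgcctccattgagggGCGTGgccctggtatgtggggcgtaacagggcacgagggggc
The CA9 sequence lies at chr9:35673675-35673924 on the plus strand and holds a single match, ACGTG on the opposite strand, whose first base in the direction of the gene is at -18 from the start. The CA12 sequence lies at chr15:63674046-63674295 on the minus strand and holds GCGTG on the opposite strand at -234, with a further match at 40, after the start and outside the printed bases. The CA5B sequence lies at chrX:15756143-15756392 on the plus strand, inside the span that GENCODE gives the gene. It holds GCGTG at -199, -179, -116, -82, -61 and -42, and ACGTG follows at 18, after the start. The CA14 promoter held neither core. Its 250 bases before the start lie at chr1:150229919-150230168 on the plus strand, also inside the span that GENCODE gives the gene. Either core was present in 48.4% of 35116 promoters of this length, ACGTG in 21.4% and GCGTG in 36.5%, so that a match describes the letters alone.

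Total counts ranged from 40915980 to 97984260 per sample, with HKC-8 samples the deepest, and 3 counts, the limit that a count of 0 allows, equalled 0.0307 to 0.0776 CPM, the count scaled to the size of the library, in a sample, for counting error only. Replicates of a group always differed by more than sampling noise (chi-square per degree of freedom from 4.57). Of 10 proximal tubule markers only ANPEP reached a mean of 1 CPM in HKC-8 cells, and LRP2, CUBN, AQP1 and SLC34A1 did not, although 6 of 7 general renal epithelial markers did. For RCC4+VHL cells 2 of the 10 and 7 of the 7 reached it, and for HepG2 cells 2 of the 10 and 6 of the 7, so that these numbers did not set the renal lines apart. By level, PAX8 stood at 165 and 132 CPM in normoxic HKC-8 and RCC4+VHL cells and at 9.43 CPM in HepG2 cells. Of the 7 renal epithelial markers, 2 were higher and 3 lower in normoxic HepG2 than HKC-8 cells (edgeR adjusted p under 0.05). Against RCC4+VHL cells 3 were higher and 4 lower. Of all 14806 genes tested, 83.0% and 83.3% differed in these comparisons, in the same order. All 10 hepatocyte markers reached a mean of 1 CPM in HepG2 cells, against 0 in HKC-8 and 2 in RCC4+VHL cells. Of 10 genes well known as HIF targets, all 10 rose in hypoxic HKC-8 and HepG2 cells. All 9 tested rose in hypoxic RCC4+VHL cells (edgeR, Benjamini-Hochberg adjusted p under 0.05). Of all genes tested, 11.2% rose in HKC-8, 19.9% in HepG2 and 25.9% in RCC4+VHL cells.

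Hypoxia raised the mRNA of CA9 and CA12, which encode transmembrane enzymes, in HKC-8 and HepG2 cells. CA14, which encodes another, was tested only in HepG2 cells and was not called there. It lowered, in RCC4+VHL cells, that of the cytosolic enzyme CA2 and raised that of the mitochondrial enzyme CA5B, and CA9 stayed at no more than 6 counts per sample. CA11 and CA13 passed the test in no line. Of the 7 members tested in HKC-8 cells, 2 rose and 0 fell, where 11.2% of all 13536 tested genes rose and 9.12% fell. These shares correspond to 2757 genes, a number that was 1013 without normoxia replicate 1 and 5755 with the replicate as a block. Only 4 members were tested in RCC4+VHL cells, of which 1 rose and 1 fell, where 25.9% of 12811 genes rose and 24.2% fell. In HepG2 cells 7 members were tested, of which 2 rose and 0 fell, where 19.9% of 13623 genes rose and 19.2% fell. The median log2 fold change of the members tested was 0.15, -0.18 and 0.09 in the 3 lines, in the same order, beside medians of 0.00, 0.00 and 0.00 over all genes. The members that could not be tested had too few reads, and were CA14 in HKC-8 cells, CA9, CA12, CA8 and CA14 in RCC4+VHL cells and CA8 in HepG2 cells.

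**Figure D1:**
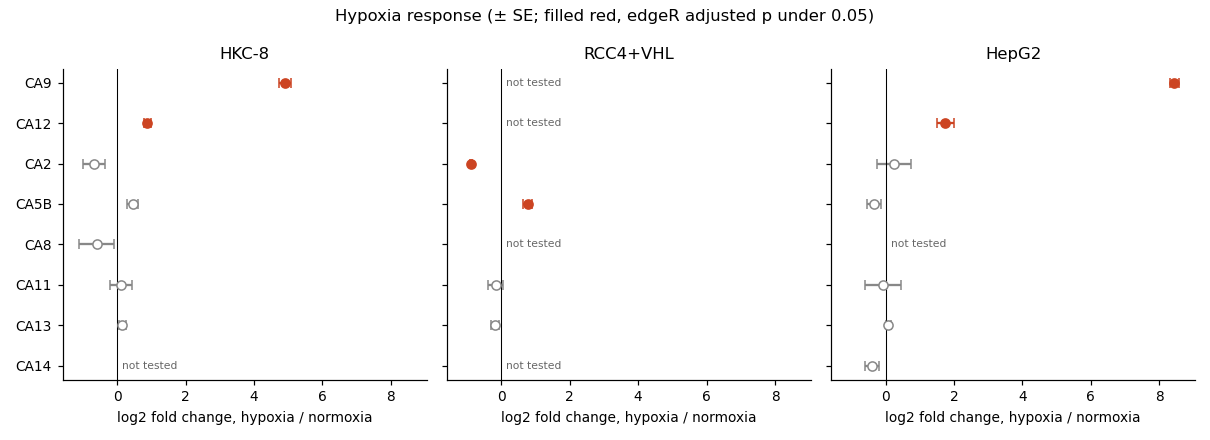
Log2 fold change of each of the 8 genes between hypoxia and normoxia (x axis) in the 3 cell lines, with the standard error of the fit as bars; filled red points have an edgeR adjusted p under 0.05, and genes with too few reads are marked as not tested. CA9 lies farthest to the right in HKC-8 (4.92) and HepG2 cells (8.45), and CA2 in RCC4+VHL cells (-0.89) is the only filled point left of 0.

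CA9 (chr9:35673925-35681156, GRCh37, plus strand, 11 exons) showed the largest change of the family. In HKC-8 cells it stood at 6.74, 4.56 and 4.72 CPM (TMM-normalised, replicates 1 to 3) in normoxia and at 156, 184 and 142 CPM in hypoxia. In HepG2 cells it stood at 0.408, 0.470 and 0.740 CPM in normoxia, from 18 to 31 counts per sample, and at 188, 179 and 197 CPM in hypoxia. Normoxic and hypoxic values lay far apart in both lines, with no overlap. The log2 fold change was 4.92 (SE 0.18, adjusted p = 1.80e-06) in HKC-8 cells, number 10 from the top of the genes tested. It was 8.45 (SE 0.12, adjusted p = 4.03e-14) in HepG2 cells, number 2 from the top. In RCC4+VHL cells the counts were 0, 0 and 0 in normoxia and 6, 4 and 3 in hypoxia, which is at least 4.24-fold higher when 3 counts over the 3 normoxic samples are taken as the limit. This bound, like those given below for other groups without counts, allows for no counting error in the group with reads.

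The rise of CA9 was steeper in HepG2 than in HKC-8 cells. The difference in log2 fold change between the lines, tested as an interaction over their 12 samples, was 3.54 (SE 0.26, adjusted p = 6.58e-07), where 9.30% of 15046 genes differed in response in either direction. The titles give 0.1% oxygen for hypoxic HKC-8 and 0.5% for hypoxic HepG2 samples. If they are right, line and oxygen level cannot be told apart. The lines differed in their normoxic level, which was 9.76-fold lower in HepG2 cells, whereas their hypoxic levels overlapped (142 to 184 CPM in HKC-8 and 179 to 197 CPM in HepG2 cells). The CA9 exons share 571 of 1546 bases (36.9%) with ARHGEF39 on the opposite strand, and the strand setting of the counting is not given in the sources used here, so that reads from these bases could have been credited to either gene or to none. ARHGEF39, a guanine nucleotide exchange factor gene, stood at 14.0 ± 1.67 CPM in normoxic and 12.8 ± 1.94 CPM in hypoxic HKC-8 cells (SD, n = 3; adjusted p = 0.584). In HepG2 cells it rose from 11.1 ± 1.32 to 14.2 ± 0.354 CPM (SD, n = 3; log2 fold change 0.35, SE 0.10, adjusted p = 0.0152). Its part in the CA9 counts was not tested.

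CA12 (chr15:63613577-63674045, minus strand, 11 exons) was already abundant in normoxic HKC-8 cells, at 63.0, 64.4 and 51.5 CPM, and reached 109, 121 and 99.3 CPM in hypoxia. The log2 fold change was 0.88 (SE 0.11, adjusted p = 0.00111). In HepG2 cells CA12 was far lower, at 0.839, 1.32 and 1.69 CPM in normoxia and 3.52, 4.06 and 5.41 CPM in hypoxia. The values did not overlap in either line, and the log2 fold change in HepG2 cells was 1.75 (SE 0.24, adjusted p = 8.34e-05). The proportional rise was larger in the line with the lower level, and even hypoxic HepG2 cells stayed below normoxic HKC-8 cells. The difference of the 2 responses was 0.87 (SE 0.26, adjusted p = 0.0493) on the log2 scale. It lay close to the threshold, and it was lost (adjusted p from 0.0745 to 0.154) when any of 8 of the 12 samples was left out, namely replicates 1 and 2 of normoxia and 1 and 3 of hypoxia in HKC-8 cells, or replicates 1 and 2 of normoxia and 2 and 3 of hypoxia in HepG2 cells. In RCC4+VHL cells the counts were 0, 1 and 0 in normoxia and 3, 1 and 18 in hypoxia, so that most of its hypoxic reads came from replicate 3. Without a filter on low counts, CA9 (adjusted p = 0.0130) and CA12 (adjusted p = 0.00593) both passed the test in this line, on these few reads.

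**Figure D2:**
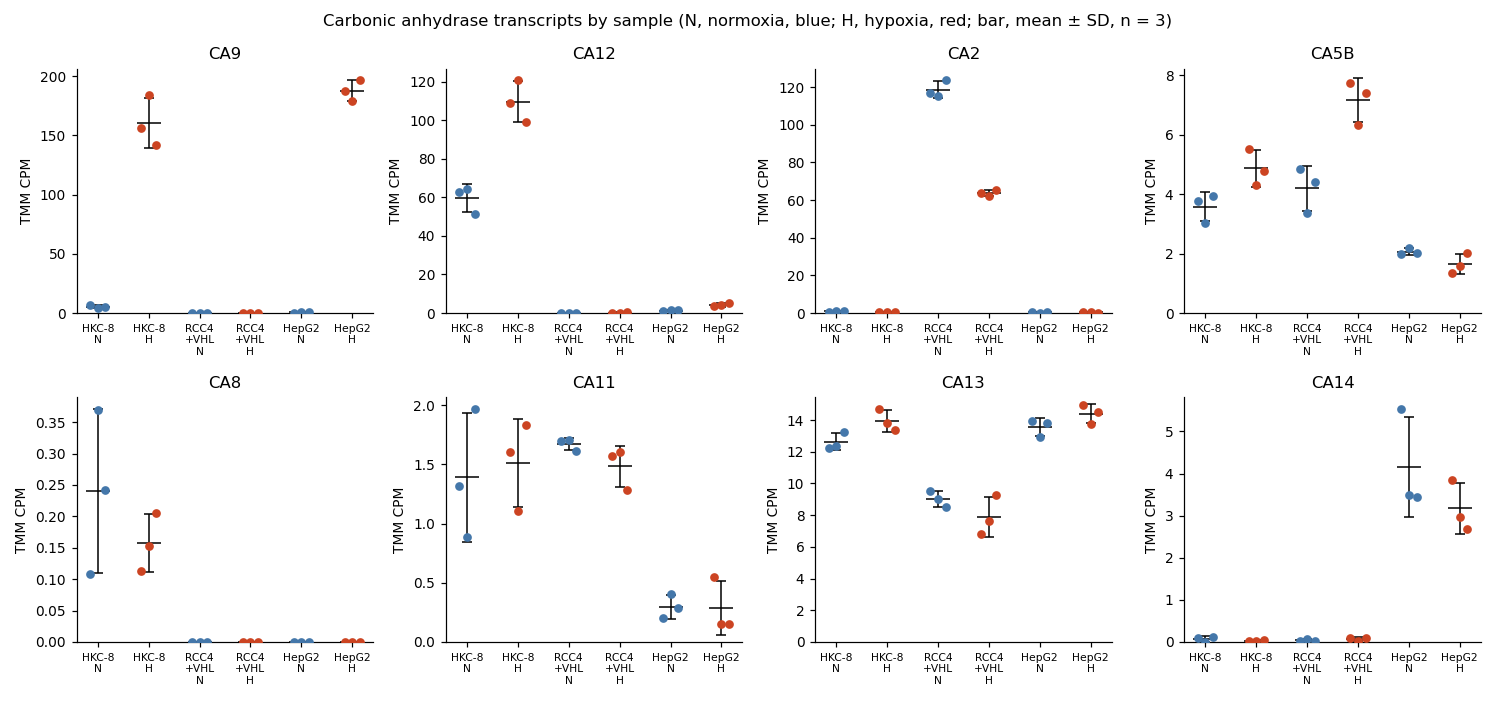
TMM-normalised CPM (y axis, linear, from 0) of the 8 genes in each of the 18 samples, with normoxic samples in blue and hypoxic samples in red; bars give the mean ± SD of 3 replicates. CA9 is high in hypoxic HKC-8 and HepG2 cells, CA12 in HKC-8 cells, CA2 in RCC4+VHL cells and CA14 in HepG2 cells, and CA13 is present in all 6 groups.

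CA2 (chromosome 8, 86376197 to 86393722, plus strand, 7 exons), the cytosolic enzyme of high activity, was the dominant member in RCC4+VHL cells and fell there in hypoxia. It stood at 117, 115 and 124 CPM in normoxia and at 63.9, 62.1 and 65.4 CPM in hypoxia, with narrow ranges that lay far apart. The log2 fold change was -0.89 (SE 0.04, adjusted p = 2.29e-14). In the other lines CA2 was low and its values overlapped between conditions. They ranged from 0.683 to 1.31 CPM in normoxic and from 0.514 to 0.811 CPM in hypoxic HKC-8 cells (log2 fold change -0.67, SE 0.33, adjusted p = 0.177), and from 0.201 to 0.612 CPM in normoxic and from 0.259 to 0.738 CPM in hypoxic HepG2 cells (0.24, SE 0.49, adjusted p = 0.735). Replicate 1 held the highest CA2 value in both conditions of HepG2 cells.

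CA5B (chrX:15706953-15806534, plus strand, 8 exons) rose in RCC4+VHL cells. Its values there were 4.84, 3.36 and 4.40 CPM in normoxia and 7.75, 6.35 and 7.41 CPM in hypoxia, without overlap (log2 fold change 0.78, SE 0.13, adjusted p = 3.37e-05). In HKC-8 cells they were 3.78, 3.02 and 3.93 CPM in normoxia and 5.52, 4.29 and 4.80 CPM in hypoxia. These also did not overlap, but the change did not pass the test (0.45, SE 0.17, adjusted p = 0.0876). In HKC-8 cells samples of the same replicate number were taken as pairs, which the labels do not state. Replicate 1 correlated as closely with another number (r = 0.119) as with its own (0.113). The test above left this pairing out. With the replicate as a block the edgeR adjusted p was 0.0145, which brings the members called there to 3. In HepG2 cells the gene ranged from 1.97 to 2.19 CPM in normoxia and from 1.36 to 2.02 CPM in hypoxia (-0.33, SE 0.20, adjusted p = 0.225). The difference between the HepG2 and HKC-8 responses was -0.77 (SE 0.26, adjusted p = 0.0784), with an adjusted p of 0.0228 under the block.

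CA5B has a near-identical pseudogene copy, CA5BP1, which overlaps its annotated span on the same strand, and reads shared by both could be split or discarded by the requirement for unique mapping. The copy moved the opposite way in RCC4+VHL cells, from 20.5, 20.3 and 20.5 CPM in normoxia to 14.7, 16.1 and 15.7 CPM in hypoxia (log2 fold change -0.39, SE 0.06, adjusted p = 2.50e-05). CA5B held 14.2% to 19.1% of the reads counted on either gene in normoxia and 28.3% to 34.5% in hypoxia. In HKC-8 cells this share was 35.9% to 45.1% in normoxia and 42.1% to 48.9% in hypoxia, and in HepG2 cells 28.4% to 34.3% and 21.8% to 31.8%, overlapping in both lines. The noncoding gene INE2, which shares 1874 of the 6837 exon bases of CA5B (27.4%) on the opposite strand, had 0 counts in every sample. As the strand setting is not given, reads from these bases could have been dropped from both genes, which was not tested. The level of CA5B is uncertain to the extent that reads passed between the copies, which was not tested.

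**Figure D3:**
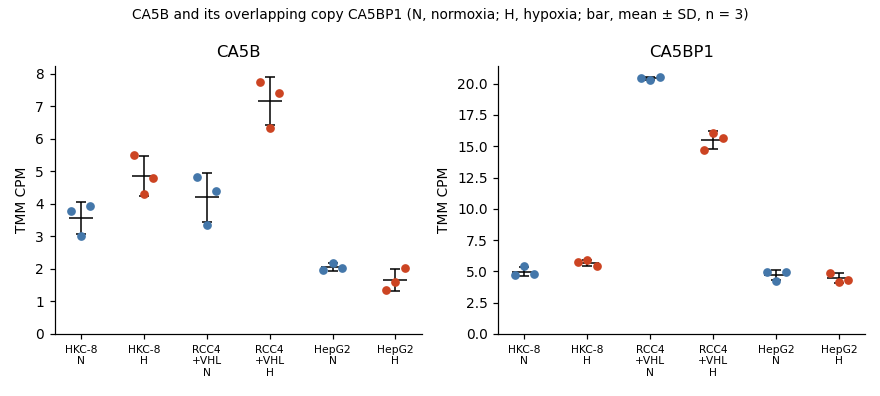
TMM-normalised CPM (y axis, linear, from 0) of CA5B and of its pseudogene copy CA5BP1 in each of the 18 samples, with the mean ± SD of 3 replicates per group. In RCC4+VHL cells CA5B is higher in hypoxia (6.35 to 7.75 CPM) than in normoxia (3.36 to 4.84 CPM), whereas CA5BP1 is lower (14.7 to 16.1 against 20.3 to 20.5 CPM).

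CA13 (chromosome 8, 86132816 to 86196302, plus strand, 7 exons) encodes the other cytosolic enzyme. By the ratio of the highest to the lowest mean of the 6 groups, it varied least of the 8, though not by the difference in CPM. It ranged from 12.3 to 13.2 CPM in normoxic and 13.3 to 14.7 CPM in hypoxic HKC-8 cells, and from 12.9 to 14.0 CPM and 13.7 to 14.9 CPM in HepG2 cells. The log2 fold changes were 0.15 (SE 0.10, adjusted p = 0.346) and 0.09 (SE 0.09, adjusted p = 0.465). In RCC4+VHL cells it was lower, from 8.49 to 9.54 CPM in normoxia and from 6.80 to 9.25 CPM in hypoxia (-0.19, SE 0.11, adjusted p = 0.155). Hypoxic replicate 3 was the highest of its group, and without it the adjusted p was 0.0225.

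CA14 (chr1:150229646-150237478, plus strand, 11 exons) was a HepG2 transcript in these data, with at most 11 counts in any sample of the other lines. In HepG2 cells it stood at 5.53, 3.49 and 3.44 CPM in normoxia and at 3.86, 2.97 and 2.69 CPM in hypoxia. Replicate 1 was the highest in both conditions and the values overlapped (log2 fold change -0.39, SE 0.20, adjusted p = 0.153).

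The members without catalytic activity were scarce. CA11 (chr19:49141203-49149444, minus strand, 9 exons) ranged from 0.887 to 1.97 CPM over the 6 HKC-8 samples, from 1.28 to 1.71 CPM over the 6 RCC4+VHL samples and from 0.152 to 0.548 CPM over the 6 HepG2 samples. Its log2 fold changes in hypoxia were 0.12 (SE 0.32), -0.17 (SE 0.21) and -0.07 (SE 0.53), with adjusted p-values of 0.822, 0.540 and 0.934. Normoxic (1.61 to 1.71 CPM) and hypoxic values (1.28 to 1.60 CPM) did not overlap in RCC4+VHL cells, whereas they did in the other lines. CA8 (chromosome 8, 61097971 to 61193959, minus strand, 9 exons), whose product binds the inositol trisphosphate receptor, was counted in HKC-8 cells alone, at 9, 30 and 22 counts in normoxia and 9, 15 and 17 in hypoxia (-0.60, SE 0.51, adjusted p = 0.441). All 12 samples of the other lines held 0 counts. By the bound used for CA9, this is at least 11.4-fold lower in normoxic RCC4+VHL cells and at least 10.4-fold lower in normoxic HepG2 cells than in normoxic HKC-8 cells.

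In normoxia CA2 was highest in RCC4+VHL cells, CA9 and CA12 in HKC-8 cells and CA14 in HepG2 cells. RCC4+VHL cells had more CA2 than HKC-8 cells (log2 difference 6.92, SE 0.20, adjusted p = 1.06e-12) and less CA13 (-0.47, SE 0.10, adjusted p = 0.000633). CA9 was at least 255-fold lower there (adjusted p = 6.05e-09). CA12, with 1 count over the normoxic RCC4+VHL samples, was 8529-fold higher in HKC-8 cells (exact 95% interval 1531 to 336899, for counting error only; adjusted p = 8.26e-13). These 4 of the 7 members tested differed, where 80.8% of 14806 genes did, and CA5B, CA11 and CA14 did not pass the test (adjusted p = 0.221, 0.393 and 0.500). HepG2 cells had more CA14 than HKC-8 cells (5.87, SE 0.49, adjusted p = 6.56e-08), and less CA9 (-3.29, SE 0.28), CA12 (-5.52, SE 0.19), CA2 (-1.40, SE 0.32), CA5B (-0.77, SE 0.19) and CA11 (-2.20, SE 0.36). Here 6 of 7 members differed, against 83.0% of all genes. Between HepG2 and RCC4+VHL cells all 7 members tested differed, against 83.3% of all genes. CA9 (at least 25.7-fold), CA12 (184-fold, exact 95% interval 32.5 to 7295), CA13 (0.60, SE 0.10) and CA14 (6.58, SE 0.58) were higher in HepG2 cells, and CA2 (-8.32, SE 0.24), CA5B (-1.01, SE 0.19) and CA11 (-2.47, SE 0.36) were lower, beside a median of 0.11 over all genes. Most genes differed between these lines, so nothing is read from the counts of members. The HKC-8 libraries were the deepest, so depth and cell line cannot be told apart where they are compared, whereas normoxic HepG2 (41511343 to 43957815 counts) and RCC4+VHL libraries (42045335 to 49594033 counts) were of similar depth.

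To compare the genes with each other, CPM were divided by the exon length of the canonical GENCODE transcript in kilobases. On this scale the sum of the 8 genes went from 18.5 ± 1.06 in normoxic to 128 ± 15.3 in hypoxic HKC-8 cells and from 7.09 ± 0.721 to 128 ± 5.80 in HepG2 cells, and it went from 79.9 ± 2.73 to 44.9 ± 1.27 in RCC4+VHL cells (SD, n = 3). CA12 made up 52.7% ± 4.78 of the sum in normoxic HKC-8 cells, followed by CA9 (18.5% ± 3.20) and CA13 (17.6% ± 1.69), and in hypoxia CA9 made up 81.4% ± 1.09 and CA12 14.1% ± 0.329. In HepG2 cells CA13 (49.5% ± 3.43) and CA14 (32.4% ± 5.99) led in normoxia, and CA9 made up 94.6% ± 0.454 in hypoxia. CA2 made up 95.1% ± 0.355 of the sum in normoxic and 91.0% ± 0.344 in hypoxic RCC4+VHL cells. The ranges of CA9 and CA13 in normoxic HKC-8 cells overlapped (16.1% to 22.2% and 16.0% to 19.4%). The leading gene of every group was the same with coding bases as the length, an alternative added after the data were examined, but other shares moved. In normoxic HKC-8 cells CA9 then made up 4.67%, behind CA13 with 19.5%, and in hypoxic HKC-8 cells the lead narrowed to 47.4% for CA9 and 42.1% for CA12, whose transcript has a long untranslated part. In normoxic HepG2 cells CA14 then made up 15.7%. CA5A, which is not among the 8, stood at 13.9 ± 1.21 CPM per kilobase of exon in normoxic HepG2 cells, above the sum of the 8 there.

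**Figure D4:**
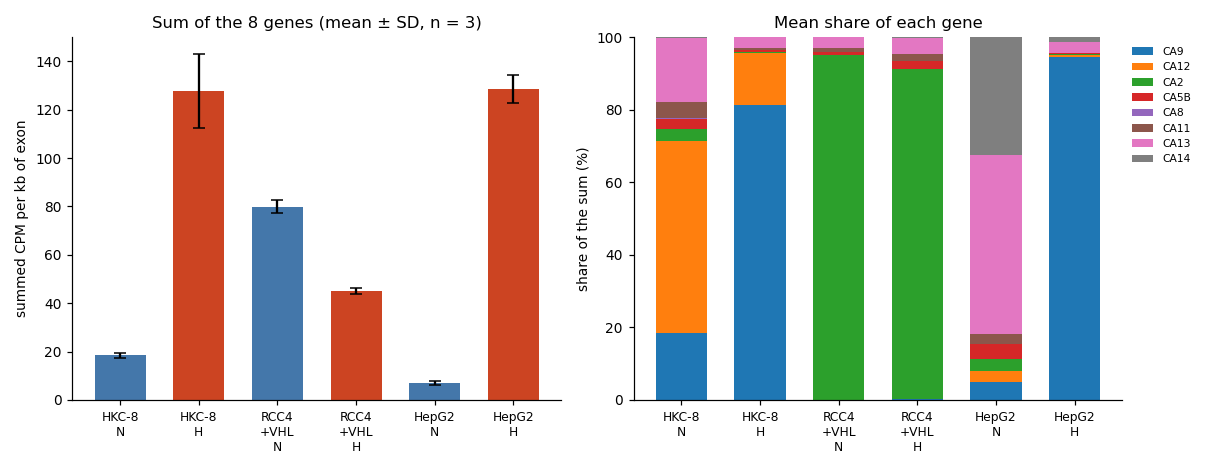
Left, the summed CPM per kilobase of exon of the 8 genes in each group (y axis, from 0; bars and whiskers, mean ± SD of 3 replicates). Right, the mean share of each gene in that sum (y axis, percent), where CA9 takes 81.4% in hypoxic HKC-8 and 94.6% in hypoxic HepG2 cells and CA2 takes 95.1% and 91.0% in RCC4+VHL cells.

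The other 7 carbonic anhydrase genes in the tables were low or confined to 1 line. CA5A, the mitochondrial isoform of liver, stood at 15.5 ± 1.34 CPM in normoxic and 12.3 ± 0.0479 CPM in hypoxic HepG2 cells (SD, n = 3) and fell (log2 fold change -0.33, SE 0.09, adjusted p = 0.0107), with at most 5 counts in a sample of the other lines. CA3, a cytosolic isoform of muscle, rose in hypoxic HKC-8 cells, from 8, 2 and 7 counts to 22, 21 and 34 counts (2.15, SE 0.53, adjusted p = 0.0222). CA4 had at most 9 counts in a sample and CA7 at most 17, and CA1, CA6 and CA10 had 0 in every sample.

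The bicarbonate and protons that carbonic anhydrases handle are moved by transporters, and 2 lists of these were followed. Of 18 bicarbonate transporter genes, 9 were tested in HKC-8 cells, where 1 rose and 0 fell. Of the 11 tested in RCC4+VHL cells 1 rose and 3 fell, and of the 13 tested in HepG2 cells 3 rose and 2 fell. The shares of all tested genes that rose and fell were 11.2% and 9.12% in HKC-8, 25.9% and 24.2% in RCC4+VHL and 19.9% and 19.2% in HepG2 cells. The median log2 fold changes of the list were 0.10, -0.16 and -0.04, beside 0.00, 0.00 and 0.00 over all genes. The gene that rose in HKC-8 cells was SLC4A5, a sodium bicarbonate cotransporter, from 19.9 to 48.1 CPM (1.28, SE 0.11, adjusted p = 0.000140). Of 16 genes for proton exchangers, lactate-proton carriers and their partners, 12 were tested in HKC-8 cells, where 3 rose and 0 fell. Of 13 tested in RCC4+VHL cells 4 rose and 2 fell, and of 12 tested in HepG2 cells 6 rose and 1 fell, with medians of 0.14, 0.03 and 0.26, to be read beside the same shares and medians of all genes (11.2% and 9.12%, 25.9% and 24.2%, 19.9% and 19.2%). SLC16A3, which encodes a monocarboxylate transporter that exports lactate, rose from 114 to 259 CPM in HKC-8 cells (1.19, SE 0.15, adjusted p = 0.00111) and from 364 to 1027 CPM in HepG2 cells (1.50, SE 0.06, adjusted p = 8.67e-10). It also rose in RCC4+VHL cells, from 101 to 199 CPM (0.99, SE 0.04, adjusted p = 4.48e-16), where CA9 remained close to 0.

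The genes whose log2 CPM followed each member most closely over the 18 samples were sought among 12827 genes with a mean of at least 1 CPM. CHSY1 (Pearson r = 0.982) and IGF1R (0.971) were among the closest to CA9, and the closest to CA12 were TCF20 (0.986), TUBGCP5 (0.985) and SLTM (0.984). ARHGAP24 was closest to CA2 (0.996), RAB3IP to CA5B (0.957), DDX60 to CA11 (0.960), KLHL31 to CA13 (0.967) and SSUH2 to CA14 (0.986), and CA8 was below the minimum. These values describe 6 groups rather than 18 independent points, since samples of a line share its level and depth, and they carry no test.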

How the data were processed

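PolyA+ RNA-seq of 18 samples was analysed as deposited counts per gene. The authors trimmed reads (Trim Galore 0.3.3), aligned them to GRCh37 with TopHat2 2.0.8b and Bowtie 1.0.0, used SAMtools 0.1.19, discarded fragments without a unique position and counted reads with HTSeq 0.5.4p3 in intersection-strict mode; the strand setting is not given in the sources used here. Reads in genes with near copies or overlapping neighbours can be lost by these steps. From the counts onwards, edgeR 4.0.16 (R 4.3.3) was used with filterByExpr, TMM and the quasi-likelihood test (glmQLFit, glmQLFTest), with Benjamini-Hochberg adjustment over all tested genes and a threshold of 0.05. The standard error is the log2 fold change divided by the square root of F. Hypoxia was tested within each line, normoxic lines in 1 fit of 9 samples, and the HepG2 and HKC-8 responses as an interaction over 12 samples, without RCC4+VHL cells because their labels give another exposure. HKC-8 cells were kept at their labelled 0.5% oxygen, although the titles of the hypoxic samples give 0.1%. DESeq2 1.42.0, median-of-ratios size factors, leaving out each sample, a block for the replicate number, no filter, a filter of at least 10 counts in every sample, and a joint fit of the 18 samples were alternatives. Tests were tried on simulated data.

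Samples were grouped by their labels, which also give the replicate numbers. In HKC-8 cells, normoxic and hypoxic samples of the same number deviated together from the means of their groups (r = 0.113, 0.469 and 0.456 over 13536 genes), which was taken as pairing, although replicate 1 correlated as closely with another number (r = 0.119). The 8 members and the gene lists were chosen with earlier results of these data known. All members were named, and list genes were named if they changed by at least 1 on the log2 scale with an adjusted p under 0.05 and no overlap of conditions; genes named outside this rule (CA5A, ARHGEF39, CA5BP1, SLC16A3 in RCC4+VHL cells and marker genes) were chosen after their values were seen. Closest genes were ranked by Pearson r of log2 CPM (prior count 2), and 1 of them is not reported here. Gene positions and lengths are from GENCODE lifted to GRCh37, and promoters from RefSeq.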

Additional observations from a re-analysis of the deposited data

Results flagged for a closer look

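The hypoxic responses of CA9 and CA12 differed between HepG2 and HKC-8 cells by a test of the difference itself, an interaction over 12 samples. Since the titles of hypoxic HKC-8 samples give 0.1% oxygen, the lines may not have had the same exposure. For CA9 the difference in log2 fold change was 3.54 (SE 0.26, edgeR adjusted p = 6.58e-07), and it lay between 3.33 and 3.82 under every alternative that was run. For CA12 it was 0.87 (SE 0.26, edgeR adjusted p = 0.0493), with adjusted p-values from 0.000630 under the replicate block to 0.154 without HepG2 normoxia replicate 1.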

How the results depend on the processing

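Of 636 recomputed log2 differences of single members, 608 kept their direction and their side of the threshold, 8 came to pass it, 9 ceased to pass it and 11 changed sign. All 11 were uncalled values of CA11 or CA2 with 1 sample left out. Leaving out samples gave CA11 values between -0.12 and 0.45 in HKC-8 cells, -0.95 and 0.25 in HepG2 cells, and -1.07 and 0.14 in the difference of the responses, and moved CA2 in HepG2 cells from -0.37 to 0.82. Counts were low in HepG2 samples (6 to 23 for CA11 and 9 to 31 for CA2), whereas CA11 held 72 to 179 in HKC-8 samples. The cause of the sign changes was not tested.

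The replicate block raised the genes called in HKC-8 cells from 2757 to 5755 and those with different responses from 1399 to 3019. It let CA5B pass in HKC-8 cells and in the difference of the responses. In RCC4+VHL cells same-numbered samples shared only a number (r from -0.0106 to 0.0332). In HepG2 cells they deviated together weakly (r from 0.0611 to 0.181), each more closely than with another number (r at most 0.0221). This was not taken as pairing. The block gave 6494 genes in RCC4+VHL and 5857 in HepG2 cells, and CA14 passed in HepG2 cells (adjusted p = 0.0427). It changed no other call of a member. A single fit of all 18 samples called 5013 genes in HKC-8 cells, 3286 in RCC4+VHL cells (6423 in the separate fit) and 2219 for the responses; the cause was not tested. Under it 4 members were called in RCC4+VHL cells, also 4 without a filter on low counts, CA5B passed in HKC-8 cells (adjusted p = 0.0415) and in the responses (0.0475), and CA12 did not in the responses (0.0709). DESeq2 also called CA5B in the responses (0.0401). With at least 10 counts in every sample, only 1, 1 and 2 members were called between the normoxic lines, since few members were left to test.

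With 1 sample left out, 1013 (without HKC-8 normoxia replicate 1) to 3283 genes were called in HKC-8 cells, 5594 to 5952 in RCC4+VHL cells, and 911 to 1890 for the responses. The members called were 2 to 3 in RCC4+VHL cells and 1 to 3 for the responses, where CA5B passed without HKC-8 normoxia replicate 3 (adjusted p = 0.0458). Between normoxic lines they were 4 to 5, 6 to 7 and 7. With coding bases as length, the shares of the leading members became 67.6% (CA12) and 47.4% (CA9) in normoxic and hypoxic HKC-8 cells, 89.6% and 80.9% (CA2) in RCC4+VHL cells, and 66.7% (CA13) and 82.9% (CA9) in HepG2 cells, by construction of the scale.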
